A study of Mus musculus with 6 samples.

Results

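The Eya coactivators and their Six-family partner factors were followed in primary mouse renal tubular epithelial cells with and without deletion of Setd2. The members are 7 genes taken by name, Eya1, Eya2, Eya3 and Eya4 with Six2, Six4 and Six5, out of 48526 genes listed for each library. They were chosen from an earlier look at the same KO against WT contrast, so their differences between the groups are given as a description and not as a test. Setd2 is the enzyme that adds the third methyl group to histone H3 at lysine 36 along transcribed genes. The KO group held 3 libraries from Setd2(F/F)Ksp-Cre+ mice, with floxed alleles of Setd2 and a Cre under the Ksp-cadherin (Cdh16) promoter, which is active in kidney tubule epithelium. The WT group held 3 libraries from Setd2(F/F) littermates, which carry the same floxed alleles and no Cre. All mice were 4 to 5 weeks old, and all cells were grown from digested kidney cortex in medium with 20 ng/ml EGF and 100 nM hydrocortisone. The sources do not say which animals gave which library or whether any were pooled, so p-values measure the spread between these libraries, which may be technical. The deletion and the presence of Cre go together in this design and cannot be told apart.

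Six-family proteins are homeodomain transcription factors that bind DNA but often need a partner to activate transcription. Eya proteins are those partners: they do not bind DNA themselves, join Six-family factors through a conserved C-terminal domain, and carry a phosphatase activity in the same domain. In the embryonic kidney, Eya1 acts upstream of the signals that induce the ureteric bud, and Six2 keeps nephron progenitors from differentiating; both are normally silent in mature tubules. Dach proteins are further partners that can turn the complex from activation to repression.

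Library totals ran from 86078636 to 106974842 counts, and levels below are in CPM, counts scaled to a fixed library size, with TMM factors that correct for library composition. Setd2 itself stood at 185, 168 and 152 CPM in the WT libraries and at 163, 154 and 158 CPM in the KO libraries, with a log2 fold change of -0.08 ± 0.08 (SE). A count over the whole gene does not check the deletion, because transcripts that lack the floxed exons still give reads. Xist, the X-inactivation RNA, was at 507 and 606 CPM in KO replicates 2 and 3 and at most at 0.683 CPM in the other 4 libraries. KO replicate 1 thus stands apart from its group and is like the WT libraries in this. The groups are not balanced for Xist, which in part goes along with genotype. Epithelial genes were abundant in all libraries, with Krt8, a simple epithelial keratin, at 2587 ± 314 CPM (SD, n = 3) in WT and Cdh16 at 735 ± 22.4 CPM. Transporters that define the differentiated proximal tubule were close to absent, with Slc34a1 at 0 counts in 5 libraries and at 1 count in KO replicate 1.

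Of the 7 members, 6 passed the filter on low counts, and Six2 did not. Eya4 was the 1 member called, lower in KO, at an adjusted p threshold of 0.05 in edgeR's quasi-likelihood test with Benjamini-Hochberg adjustment over 17571 tested genes. Over all tested genes, 21.0% were called, 12.0% higher and 9.08% lower in KO. The KO and WT libraries did not overlap in 5 of the 6 tested members, against 41.9% of all tested genes. The median log2 fold change of the tested members was -0.14 and that of all tested genes was -0.01. Nothing is read from these counts, since the members were selected on this contrast.

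Eya4 (ENSMUSG00000010461), a coactivator known for its part in hearing and in heart muscle, held the widest difference. The gene lies at chr10:23102963-23350786 on the minus strand of GRCm38, spans 247824 bp and has 8 annotated transcripts. It was counted at 26.1, 27.0 and 28.0 CPM in WT replicates 1, 2 and 3 and at 7.30, 8.85 and 8.55 CPM in the KO replicates. Every KO library was below every WT library, and within each group the libraries lay close together. These levels rest on 2257, 2871 and 2699 counts in WT and 644, 843 and 839 counts in KO. The log2 fold change was -1.71 ± 0.10 (SE, 95% interval -1.93 to -1.50), and the KO mean was 30.5% of the WT mean. KO replicate 1, the KO library with little Xist, had the lowest Eya4 level of the 6 libraries, and with KO replicate 1 as the only KO library the log2 fold change was -1.89. Fewer cells that express a gene and less RNA per cell cannot be told apart in such bulk libraries.

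**Figure D1:**
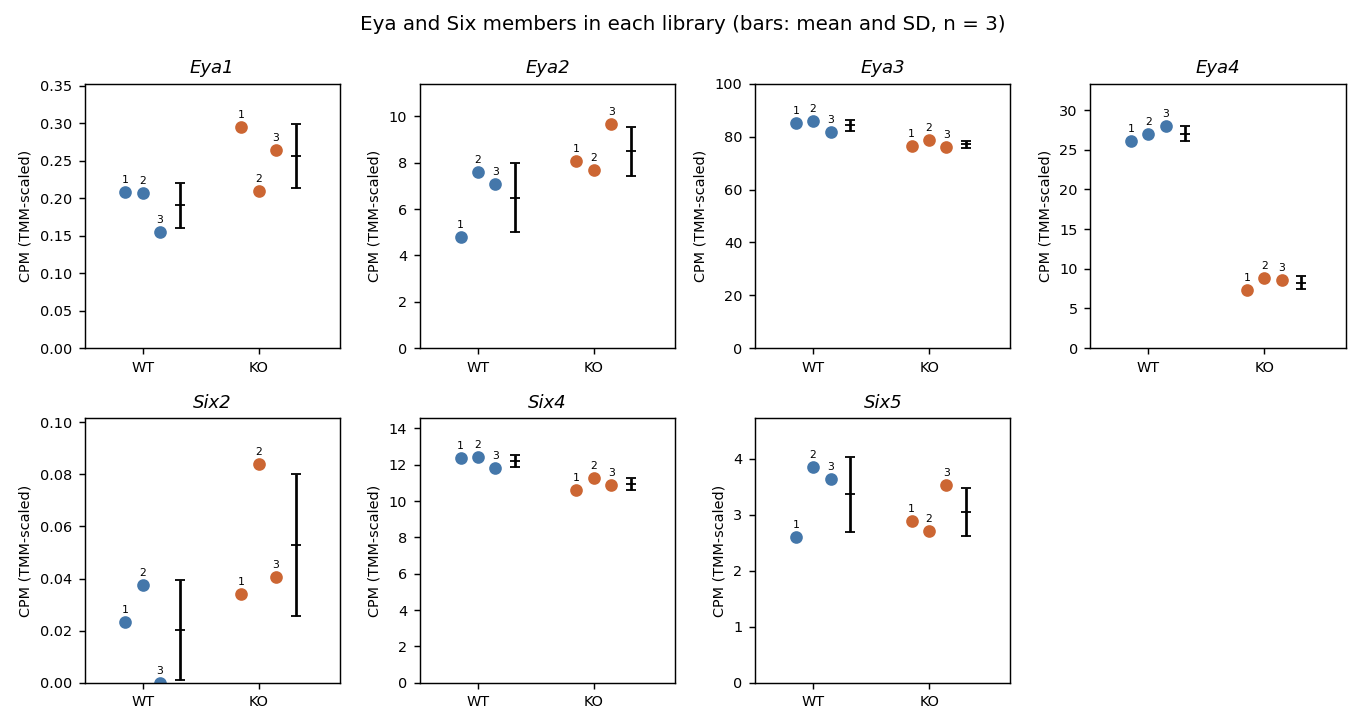
Level of each of the 7 members in each library, in TMM-scaled CPM on a linear axis that starts at 0; points are libraries with their replicate numbers, blue for WT and orange for KO, and the bars give the mean and SD of 3 libraries. The KO libraries of Eya4 lie between 7.30 and 8.85 CPM, below the WT libraries at 26.1 to 28.0 CPM, while the other panels show smaller gaps or overlap.

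The start region of Eya4 is shown because it is the member with the large difference, and that of Eya3 because it is the abundant paralog whose level was nearly the same. RefSeq promoter windows for GRCm38.p6 were found for 5 of the 7 members. Each printed run lies outside annotated exons, and the capitals mark CpG dinucleotides, the sites of DNA methylation. The Eya3 run lies just before the first exon of the gene. The Eya4 run lies inside the annotated gene, between the first exon of its most upstream transcript and the first exons of the transcripts that start further downstream. The Eya4 run is chr10:23350137-23350193 on the minus strand and the Eya3 run is chr4:132638796-132638986 on the plus strand.
Eya4: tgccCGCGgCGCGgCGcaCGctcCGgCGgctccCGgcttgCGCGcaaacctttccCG
Eya3: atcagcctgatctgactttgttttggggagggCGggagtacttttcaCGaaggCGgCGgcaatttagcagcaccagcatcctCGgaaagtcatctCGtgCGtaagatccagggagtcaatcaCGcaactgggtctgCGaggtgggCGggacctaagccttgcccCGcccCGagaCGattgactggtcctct
The Eya4 run holds 12 CpG in 57 bases and the Eya3 run 13 in 191 bases. Over the full window of 250 bases before each start, the 2 Eya4 starts held 25 and 35 CpG, the Eya3 start 18, the Six2 start 26, the Six4 starts 15 and 13 and the Six5 start 13. The median over 32851 such windows was 6, with quartiles of 2 and 16. The Eya4, Eya3 and Six2 windows lie above the upper quartile and the Six4 and Six5 windows between the median and the upper quartile. No methylation or chromatin was measured here, and the part of CpG content in the differences was not tested.

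Eya3 (ENSMUSG00000028886, chr4:132638987-132724765, plus strand) is the broadly expressed member of the family. Its levels were 85.2, 85.9 and 81.7 CPM in WT and 76.6, 78.6 and 76.3 CPM in KO. The groups did not overlap, but the gap was small: the KO mean was 91.5% of the WT mean, with a log2 fold change of -0.13 ± 0.07 (SE, 95% interval -0.27 to 0.02). The interval includes 0 and its lower bound is far from the Eya4 value.

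Eya2 (ENSMUSG00000017897, chr2:165595032-165771727, plus strand), a coactivator described in muscle progenitors and in several tumours, was counted at 4.79, 7.59 and 7.09 CPM in WT and at 8.07, 7.70 and 9.68 CPM in KO. The KO libraries were above the WT libraries, though KO replicate 2 exceeded WT replicate 2 by a narrow margin and WT replicate 1 was well below the other WT libraries. The log2 fold change was 0.38 ± 0.16 (SE, 95% interval 0.03 to 0.74), and 0.22 without WT replicate 1. Eya2 did not pass the threshold over all tested genes, and its interval lies on the other side of 0 from that of Eya4.

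Eya1 (ENSMUSG00000025932, chr1:14168954-14310235, minus strand), the member required for kidney formation, was nearly absent. It had 18, 22 and 15 counts in WT and 26, 20 and 26 counts in KO, or 0.208, 0.207 and 0.155 CPM against 0.295, 0.210 and 0.265 CPM. The groups just failed to overlap. The log2 fold change of 0.43 ± 0.30 (SE, 95% interval -0.23 to 1.08) leaves both directions possible at this depth.

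Levels of different genes can be compared only per length, so counts were also divided by the merged exon length of each gene, giving RPKM, the CPM per kilobase. On that scale Eya3 led in WT at 14.9 ± 0.397 RPKM (SD, n = 3), followed by Eya4 at 2.87 ± 0.0964 and Eya2 at 2.19 ± 0.503, with Eya1 at 0.0244 ± 0.00388. In KO, Eya3 was at 13.7 ± 0.222 RPKM, Eya2 at 2.86 ± 0.354, Eya4 at 0.874 ± 0.0872 and Eya1 at 0.0329 ± 0.00550. Eya4 and Eya2 thus stood in the opposite order in the 2 groups, and the other neighbours in the order lay further apart than their spread. Eya3 made up 74.6 ± 2.39% of the summed Eya level in WT and 78.4 ± 1.86% in KO. The share of Eya4 was 14.4 ± 0.544% in WT and 5.01 ± 0.433% in KO, and that of Eya2 was 10.9 ± 2.28% and 16.4 ± 1.83%. The summed Eya level was 20.0 ± 0.595 RPKM in WT and 17.4 ± 0.309 RPKM in KO. With the longest transcript as the length, the share of Eya4 became 21.2% in WT and 7.78% in KO, so the shares depend on which transcripts are used.

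**Figure D2:**
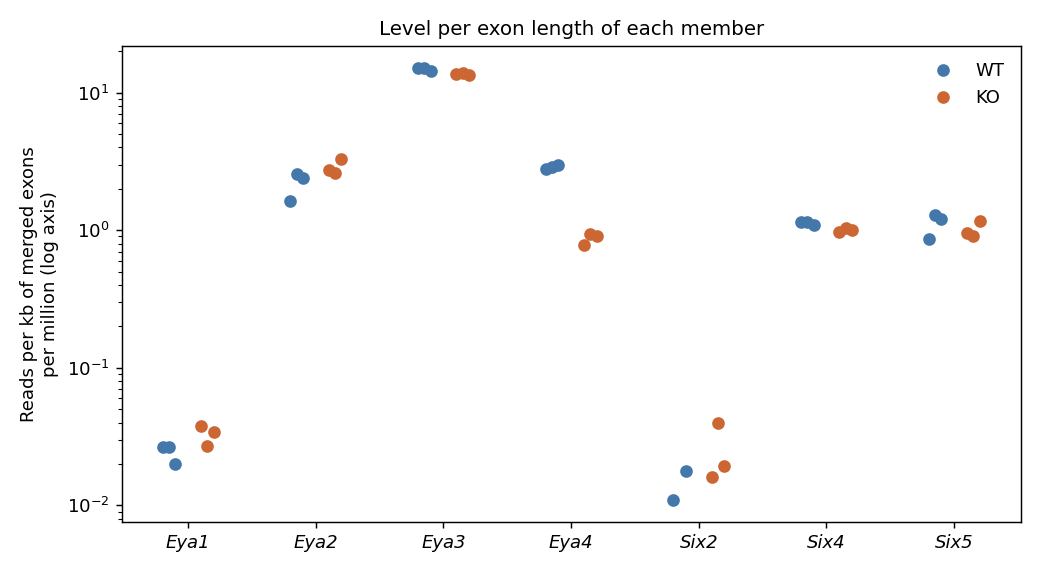
Level of each member in CPM per kilobase of merged exons (RPKM) on a log axis; each point is 1 library, blue for WT and orange for KO, and the WT replicate with no Six2 count cannot be drawn on this axis. Eya3 leads in both groups at 14.9 RPKM in WT and 13.7 RPKM in KO on average, Eya4 lies above Eya2 on average in WT and below it in KO, and Eya1 and Six2 lie near the bottom.

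Among the DNA-binding partners, Six4 (ENSMUSG00000034460, chr12:73099609-73113456, minus strand), a homeodomain factor of muscle and kidney development, was counted at 12.4, 12.4 and 11.8 CPM in WT and at 10.6, 11.3 and 10.9 CPM in KO. The KO libraries were below the WT libraries by a small margin. The log2 fold change was -0.16 ± 0.09 (SE, 95% interval -0.35 to 0.04), with a KO mean at 89.6% of the WT mean.

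The 250 bases before each RefSeq start were searched on both strands for the MEF3 motif TCAGGTTTC (reverse complement GAAACCTGA), the site to which Six-family factors bind. It is a description of the sequence and not of binding. Among the member windows it was found in 1, that of the downstream Six4 start, 91 to 99 bases upstream of that start, as its reverse complement on the strand of the gene. GENCODE places it in a 5′ untranslated exon of another Six4 transcript. The site is shown for that match, at chr12:73113326-73113354 on the minus strand, with the motif in capitals.
Six4: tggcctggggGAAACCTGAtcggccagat
Of all 32851 windows, 127 (0.387%) held the motif.

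Six5 (ENSMUSG00000040841, chr7:19094594-19098549, plus strand), the neighbour of the myotonic dystrophy kinase gene Dmpk, was counted at 2.61, 3.86 and 3.64 CPM in WT and at 2.89, 2.72 and 3.53 CPM in KO. The groups overlapped, with WT replicate 1 the lowest of the 6 libraries. The log2 fold change was -0.15 ± 0.17 (SE, 95% interval -0.52 to 0.23), and leaving out 1 library at a time moved it between -0.29 without WT replicate 1 and -0.03 without WT replicate 2. Dmpk stood at 2.55 ± 0.145 CPM in the WT group and 2.64 ± 0.532 CPM in the KO group, a log2 fold change of 0.05 ± 0.16.

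Six2 (ENSMUSG00000024134, chr17:85684277-85688274, minus strand), the factor of nephron progenitors, had 2, 4 and 0 counts in WT and 3, 8 and 4 counts in KO. Summed over libraries this was 6 counts in WT (exact Poisson 95% interval 2.20 to 13.1) and 15 in KO (8.40 to 24.7), intervals that cover counting error only. They overlap, but that is not a test of the difference, and Six2 was left out of the main fit for its low counts. In the 1 fit that kept Six2, its log2 fold change was 1.30, a value that rests on these few counts. In the library without a count, a floor of 3 counts allows up to 0.0313 CPM.

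Per length of merged exons, the Six4 and Six5 levels were alike: 1.12 ± 0.0318 and 1.12 ± 0.222 RPKM (SD, n = 3) in WT, and 1.01 ± 0.0313 and 1.01 ± 0.143 RPKM in KO. On that length these neighbours do not differ beyond their spread. Per longest transcript they do, with Six4 at 1.79 ± 0.0506 RPKM and Six5 at 1.12 ± 0.222 RPKM in WT, and at 1.60 ± 0.0499 and 1.01 ± 0.143 RPKM in KO. Six2 was at 0.00957 ± 0.00896 RPKM in WT and 0.0250 ± 0.0128 RPKM in KO. The summed level of the Six-family members was 2.25 ± 0.216 RPKM in WT and 2.05 ± 0.133 RPKM in KO, well below the Eya sum. Six4 supplied 50.2 ± 5.47% of it in WT and 49.4 ± 3.42% in KO, or 61.6% and 60.8% with the longest transcript as the length.

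Further genes of the family were close to absent. Six3, a forebrain and eye factor, had 7 counts in all 6 libraries together. Six6 and the long non-coding RNA Six3os1 had 0, which at a floor of 3 counts over 570832076 allows up to 0.00526 CPM. Six4 and Six5 were thus counted far above these genes, and neither was called.

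Genes that work with or around the complex were taken from lists made by known role. In the list of Dach, Ski and Groucho partners, which serve the repressive side of the complex, 5 of 11 genes rose in KO and 0 fell, against 12.0% and 9.08% of all tested genes, with a median log2 fold change of 0.34 against -0.01. Dach1, the Dachshund corepressor, went from 6.05, 5.46 and 4.81 CPM in WT to 7.71, 7.35 and 8.80 CPM in KO (log2 fold change 0.55 ± 0.12, edgeR quasi-likelihood adjusted p = 0.0099). The Groucho corepressor Tle4 rose from 28.9 ± 1.52 to 36.6 ± 3.15 CPM (SD, n = 3), and Aes, a short Groucho relative that can oppose the others, rose from 282 ± 48.6 to 371 ± 14.5 CPM. Sobp, the mouse relative of a Drosophila Sine oculis binding protein, rose from 0.0405 ± 0.0231 to 0.131 ± 0.0141 CPM, a level of few counts. Ski, named after its values were seen, was the remaining call (0.31 ± 0.09). The count of 5 higher genes was 3 without WT replicate 1 and also without WT replicate 3, 4 without WT replicate 2, 1 without KO replicate 1 and also without KO replicate 3, and 2 without KO replicate 2. It was 0 with a term for the Xist-high libraries, although the log2 fold changes stayed about as large, at 0.50 for Dach1, 0.40 for Aes, 0.45 for Tle4, 0.30 for Ski and 1.69 for Sobp. The Sobp call was also lost in DESeq2, at an adjusted p of 0.103.

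Of the early kidney regulators, the genes that act with Eya1 and Six2 in the embryo, 14 of 18 were tested, 5 were higher and 1 was lower, against 12.0% and 9.08% of all tested genes, and the median log2 fold change was 0.21. Pax2, a paired-box factor that joins Eya1 in nephron progenitors, rose from 39.2, 52.7 and 41.9 CPM in WT to 56.4, 58.1 and 75.7 CPM in KO (log2 fold change 0.51 ± 0.13). Gata3 (0.47 ± 0.12) and the receptor gene Ret (0.46 ± 0.13), both of the ureteric lineage, also rose. The remaining higher calls, named after their values were seen, were Wt1 (0.78 ± 0.25) and Crym (1.18 ± 0.38), the latter at 0.200 ± 0.0268 CPM in KO. These calls depend on the tool: Wt1 was at an adjusted p of 0.070 in limma-voom and Crym at 0.130 in DESeq2. Hoxd11, a patterning factor of the nephrogenic mesenchyme, fell by 0.86 ± 0.27 on the log2 scale, with a mean of 0.708 ± 0.0425 CPM in WT libraries and 0.388 ± 0.143 CPM in KO libraries. Pax8, the abundant paralog of Pax2, had means of 147 ± 4.57 CPM (WT) and 147 ± 3.87 CPM (KO), with a 95% interval of -0.15 to 0.15 for its log2 difference. The number of higher genes was 1 without KO replicate 3, 1 without WT replicate 2, 2 without KO replicate 1 and 2 without WT replicate 3, and 1 with the Xist term. The lower call of Hoxd11 was lost, with 0 genes lower, without WT replicate 1, 2 or 3 and without KO replicate 2.

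Genes reported elsewhere as targets of Eya and Six-family proteins moved in both directions: of 10 tested, 3 rose and 1 fell, against 12.0% and 9.08% of all tested genes, with a median log2 fold change of 0.12. The 1 lower call is about the background share. Igfbp5, a binding protein of insulin-like growth factors, rose from 34.9, 21.2 and 23.5 CPM to 71.5, 48.5 and 48.1 CPM (log2 fold change 1.08 ± 0.19, edgeR quasi-likelihood adjusted p = 0.0030). Ezr, which links membrane to actin, rose from 584 ± 49.9 to 861 ± 50.6 CPM, and Myc from 173 ± 17.5 to 243 ± 13.6 CPM (SD, n = 3). Vegfc, a lymphatic growth factor, fell from 8.19, 7.32 and 7.46 CPM to 4.42, 4.67 and 4.67 CPM, a log2 fold change of -0.74 ± 0.11 (edgeR quasi-likelihood adjusted p = 0.0010). The target Ccnd1, which encodes cyclin D1, lay at a log2 fold change of 0.02 ± 0.08. All 4 calls stayed with any single library left out.

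Of 6 genes listed as partners of the Eya phosphatase or of the DNA damage response, 1 was called higher and 0 lower. That is near the shares of all tested genes, 12.0% and 9.08%, and nothing is read from it. Mdc1, which binds the phosphorylated histone variant at breaks, rose from 82.3 ± 5.61 to 99.9 ± 0.421 CPM (SD, n = 3). That call was lost without any of the KO replicates (0 genes higher in each case). H2afx, which encodes the histone substrate itself, had means of 36.3 ± 7.40 CPM (WT) and 33.7 ± 0.600 CPM (KO), and the median of the list was -0.05. The estrogen receptor gene Esr2 (log2 fold change -0.58, 95% interval -1.15 to -0.01) and Baz1b, a kinase of the same histone (-0.18, 95% interval -0.36 to -0.01), were not called, though their single-gene intervals lie below 0. Skeletal muscle markers, genes of a tissue in which Eya and Six-family factors act, were largely silent: 3 of 11 were tested and 0 were called. In edgeR's quasi-likelihood test, Des was at an adjusted p of 0.055 and Acta1 at 0.186, and Myod1, Myf5 and Myf6 had 0 counts in every library.

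**Figure D3:**
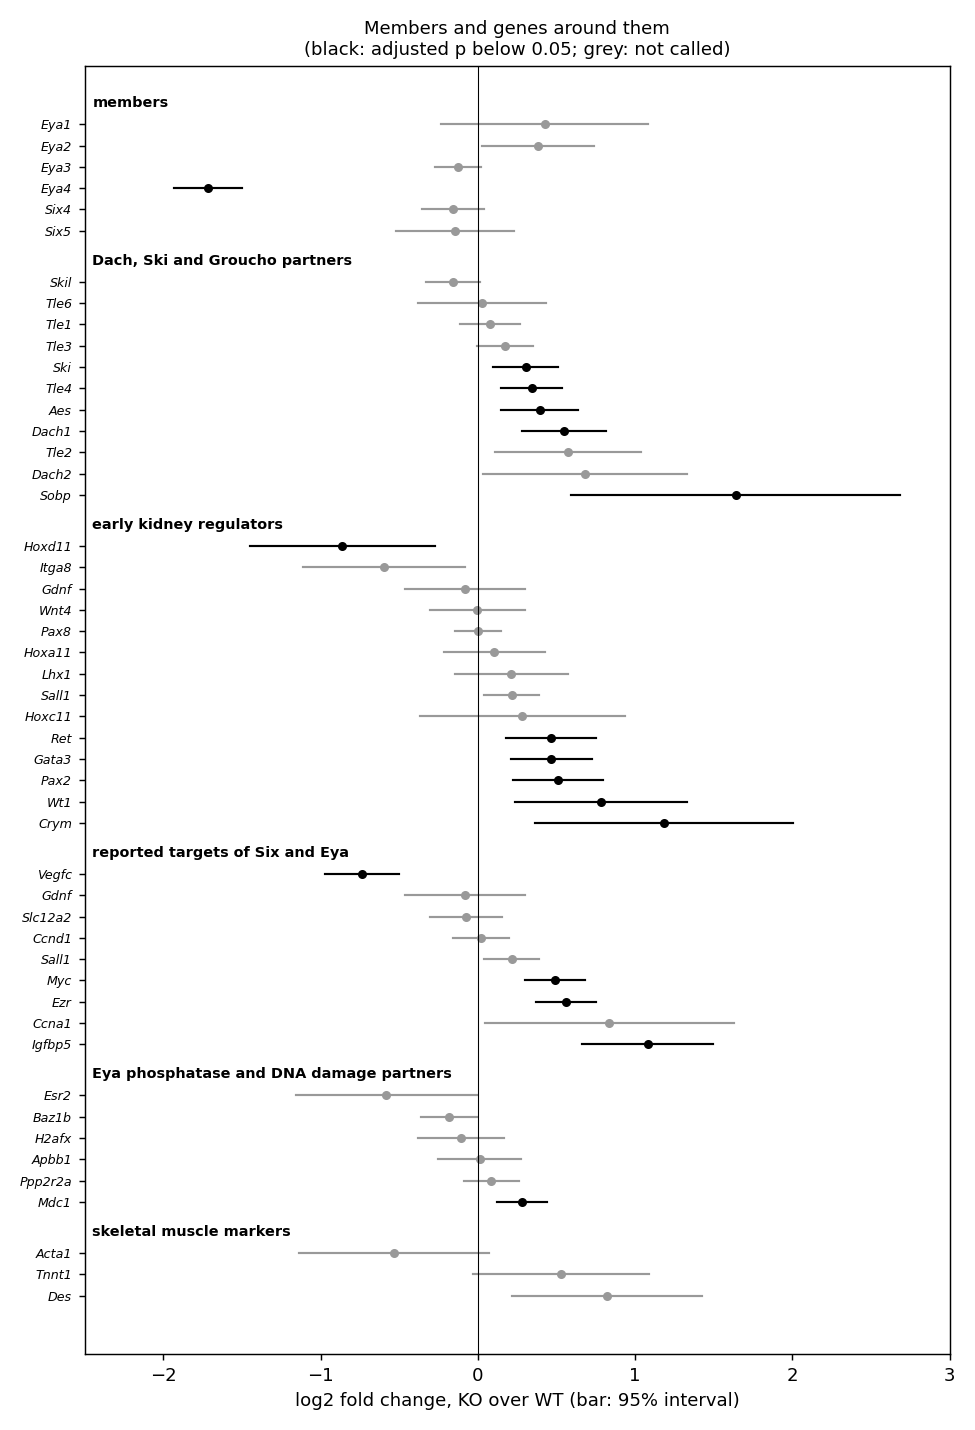
Log2 fold change of KO over WT for the tested members and for most of the tested listed genes around them, with 95% intervals from the edgeR fit; black marks genes past the adjusted p threshold of 0.05 and grey those that did not pass. Eya4 at -1.71 lies furthest from 0 on the lower side, the Dach, Ski and Groucho list lies mostly above 0, and the listed targets lie on both sides.

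Markers of other cortical cells differed between the groups as well. The counts of called markers below stand against 12.0% higher and 9.08% lower of all tested genes. Summed podocyte markers were at 114 to 116 CPM in WT and 180 to 215 CPM in KO, with 5 of 10 genes higher. Podxl alone was at 79.0 CPM of the podocyte mean of 115 CPM in WT. Summed endothelial markers were at 20.7 to 22.0 and 29.7 to 40.2 CPM, with 6 of 10 higher. Leukocyte markers were at 30.3 to 35.8 and 44.6 to 53.6 CPM (4 of 10 higher). Proximal tubule markers were at 140 to 144 and 189 to 215 CPM (6 of 8 tested higher), with Ass1 at 103 CPM of the mean of 141 CPM in WT. Each of these sums gave p = 0.1 in a two-sided exact permutation test, the smallest that 3 against 3 libraries allow, and 0.14 after Benjamini-Hochberg adjustment over 7 marker lists. Fibroblast and pericyte markers were at 114 to 154 and 120 to 201 CPM (6 of 9 tested higher). Markers of the ascending limb, distal tubule and collecting duct were at 6182 to 7224 and 7134 to 7206 CPM (4 of 13 tested higher). Both had an exact permutation p = 0.4 before and after adjustment. The latter sum is mostly genes of epithelia in general, led by Krt8 at 2587 CPM in WT. Segment genes such as Umod, at 0.805 CPM in WT, hardly enter it, so it does not show how the segments compare. Nephron progenitor markers were at 4.58 to 5.26 and 3.67 to 4.37 CPM, with 1 gene higher and 1 lower of 5 tested. This list holds Six2 and Eya1, selected on this contrast, so nothing is read from its exact permutation p = 0.1 (adjusted 0.14). Gdnf at 1.95 CPM and Itga8 at 1.75 CPM, neither of them called, led its WT mean of 4.89 CPM. Gdnf, Itga8, Hoxd11 and Osr1 had lower means in KO, while Six2, Eya1, Crym, Meox1 and Cited1 had higher means. In these lists 0 markers were without a count in all 6 libraries; the podocyte gene Nphs1 was at 0.397 ± 0.0584 CPM in WT and the endothelial gene Pecam1 at 1.17 ± 0.0758 CPM (SD, n = 3). Wt1, one of the early kidney regulators that rose, is also on the podocyte list. The part of other cell types in the differences of Eya4 or of its partners was not tested.

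Genes next to the members were also compared. No protein-coding gene lay within 200 kb of Eya4 or of Eya1. Around the other members 45 such genes were annotated and 36 tested, and 5 of them, 13.9%, were called, 2 higher and 3 lower, against 21.0% of all tested genes. Beside Eya3, Smpdl3b, a sphingomyelinase-like gene, fell from 20.8 ± 1.55 to 10.8 ± 0.506 CPM (SD, n = 3), and Rpa2 fell by 0.41 ± 0.12 on the log2 scale. Ptafr rose by 1.18 ± 0.35 on the log2 scale, from 0.101 ± 0.0157 to 0.229 ± 0.0576 CPM, a level of few counts. Beside Six5, the proton-sensing receptor gene Gpr4 rose from 4.93 ± 0.644 to 9.24 ± 1.25 CPM and the splicing gene Snrpd2 fell by 0.29 ± 0.09 on the log2 scale. Smpdl3b and Gpr4 stayed called with any single library left out. The calls of the others were lost on leaving out some libraries: the value of Rpa2 was -0.25 without WT replicate 3, that of Ptafr 0.99 without KO replicate 3 and that of Snrpd2 -0.23 without WT replicate 3.

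Some members overlap other annotated genes. In Eya4 the snRNA gene Gm24655 had 6 counts over all libraries, and in Eya2 the pseudogene Gm11460 had 11 counts in all. Whether reads of such genes were counted for the members was not tested.

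Over the 6 libraries, the genes whose profile was nearest to that of Eya4 were Ankk1, Tll1 and Ltbp2, out of 12547 genes with a mean of at least 1 CPM. The measure was the root-mean-square difference of log2 CPM, centred on the WT mean, which was 0.0950 for Ankk1, 0.155 for Tll1 and 0.208 for Ltbp2. Ankk1, a kinase-like gene, averaged 2.34 ± 0.342 CPM across WT libraries and 0.687 ± 0.0612 CPM across KO libraries (SD, n = 3). Tll1, a secreted metalloprotease, was at 19.7 ± 2.05 and 6.28 ± 0.600 CPM, and Ltbp2, a matrix protein of elastic fibres, at 25.2 ± 4.19 and 8.54 ± 0.717 CPM. They lie on chromosomes 9, 8 and 12, away from Eya4 on chromosome 10.

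The libraries differed in how they recovered genes of different GC content, which touches the members unequally. In WT replicate 1, the median log2 CPM relative to the other WT libraries was 0.19 in the lowest of 5 GC classes and -0.30 in the highest. In WT replicate 3 it was -0.17 and 0.19, and the KO libraries stayed within 0.043 of their group in each class. The median log2 fold change of all tested genes went from -0.11 in the lowest class to 0.13 in the highest. Eya4, at 41.3% GC, belongs to the lowest class. Six5, at 61.1%, belongs to the highest and Eya2, at 55.0%, to the class below, and WT replicate 1 was the lowest library for both. The part of GC content in the values of the members was not tested.

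**Figure D4:**
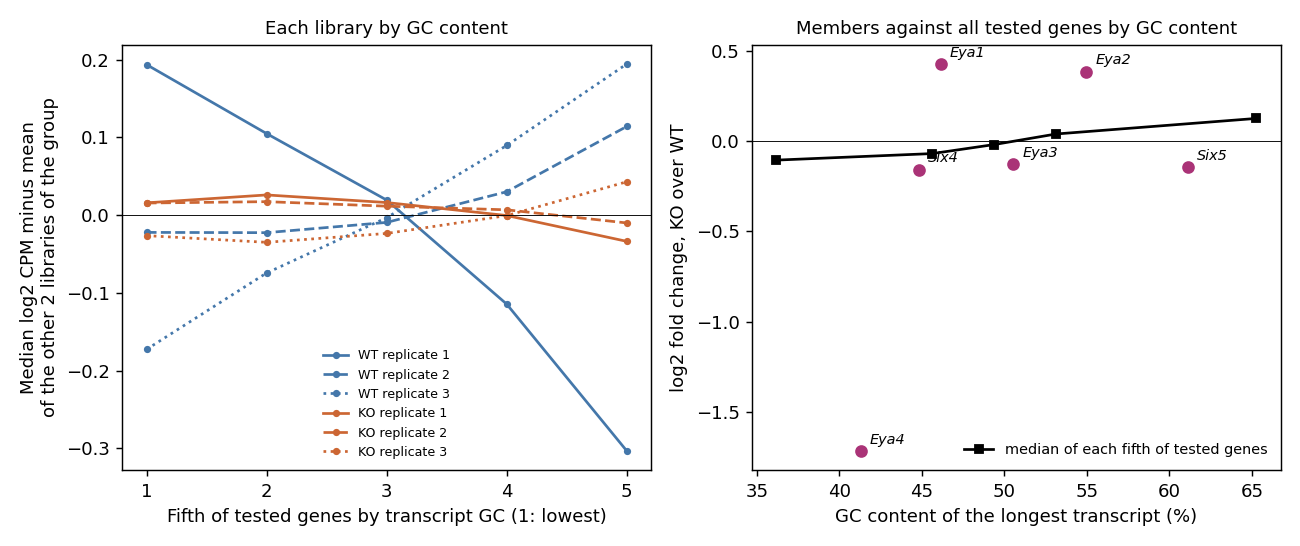
Left, median log2 CPM of each library minus the mean of the other libraries of its group, in 5 classes of tested genes by transcript GC content (1 is the lowest); right, log2 fold change of the tested members against the GC content of their longest transcript, with the median of each class as black squares. WT replicate 1 runs from 0.19 to -0.30, the class medians run from -0.11 to 0.13, and Eya4 is plotted at -1.71.

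Across 17 ways of fitting the data, the log2 fold change of Eya4 ran from -1.89 to -1.62 and passed the threshold each time. Eya3 ran from -0.15 to -0.10 and Six4 from -0.20 to -0.12. Eya2 ran from 0.22 to 0.51 and Six5 from -0.29 to -0.03. Eya1, fitted in 16 of them, ran from 0.30 to 0.63. The direction of each of these 6 members was the same in every fit.

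**Figure D5:**
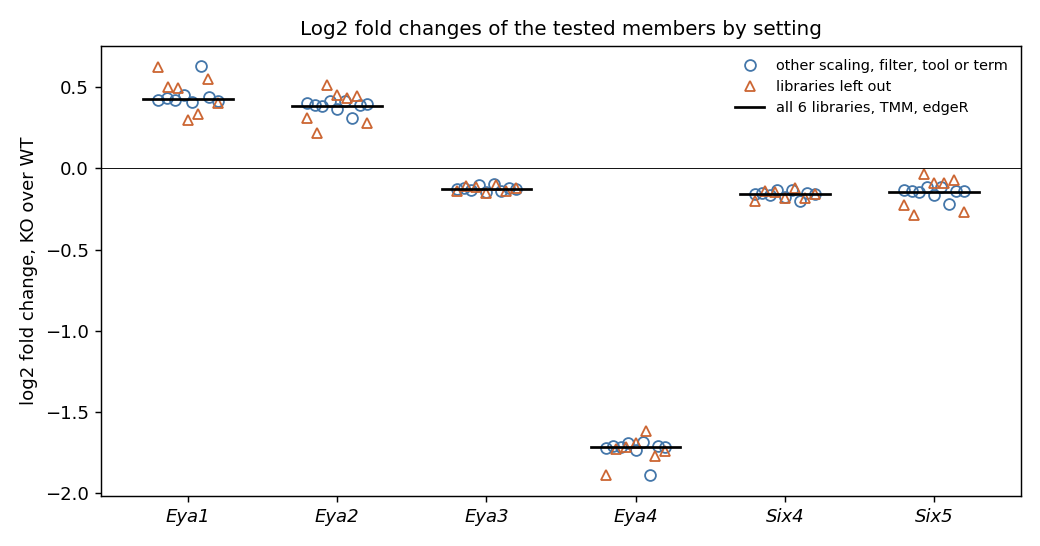
Log2 fold change of KO over WT for the 6 tested members; the black bar is the fit with all 6 libraries and TMM factors, blue circles are fits with another scaling, filter, tool or term, and orange triangles are fits with libraries left out. Eya4 stays between -1.89 and -1.62, and the other members keep to 1 side of 0.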

How the data were processed

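For each of the 6 libraries the authors deposited raw counts of reads by Ensembl gene. The tools HTSeq 0.11.2, STAR 2.7.1a and Trimmomatic 0.38 and the build mm10 are listed per the submitters' processing notes, without roles or settings. Their annotation release and strand setting were not given in the sources used, so reads of overlapping genes on either strand may be added together.

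Groups and replicate numbers came from the sample titles. Symbols, coordinates and lengths came from GENCODE M21, which named 48058 of the 48526 genes. edgeR 4.0.16 under R 4.3.3 tested the counts (filterByExpr defaults, TMM, quasi-likelihood test, genotype as the only term, Benjamini-Hochberg adjustment). CPM use TMM-scaled library sizes. A GC value was found for 17518 of 17571 tested genes. The fit was also run on counts simulated from its own model, which does not show how well that model suits these libraries. Alternatives used limma 3.58.1 and DESeq2 1.42.0, other scalings and filters, an Xist term (libraries over 10 CPM of Xist), a replicate block and libraries left out.

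The members, lists and tests were chosen with earlier results of these data known. All members are named. From each list up to 4 called genes by smallest adjusted p are named, or up to 2 of the most abundant, from each neighbourhood up to 3 called genes, and for Eya4 the 3 nearest profiles. Setd2, Xist, Krt8, Cdh16, Slc34a1, Dmpk, Pax8, H2afx, Ccnd1, the silent muscle genes, Nphs1 and Pecam1 were named besides for their role. Ski, Wt1, Crym, Esr2, Baz1b, Umod, Podxl, Ass1, Gdnf, Itga8, Osr1, Meox1 and Cited1 were named after their values were seen. Values of some listed genes are not reported here.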

Additional observations from a re-analysis of the deposited data

How the results depend on the processing

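Over all tested genes, 2102 were higher and 1596 lower in KO. With a term for the Xist-high libraries these became 878 and 285, and without those libraries, which leaves 1 KO library assumed to vary like the WT libraries, 728 and 179. Leaving out each library in turn gave 1228 to 2142 higher and 455 to 1624 lower, the lowest without KO replicate 1. No pairing by replicate number was seen: same-numbered libraries had correlations of 0.04, -0.15 and 0.03, and not every library correlated best with its own number. Such weak correlations cannot show that the libraries were unpaired. With the replicate block 2139 genes were higher and 1455 lower, early kidney regulators had 2 lower and muscle markers 1 higher.

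Dach, Ski and Groucho partners had 5 higher, 0 with the Xist term and 0 without the Xist-high libraries; single libraries left out gave 1 to 4 higher and 0 to 1 lower. Early kidney regulators had 5 higher, 1 with the Xist term and 1 without those libraries, and 1 to 4 on leaving out single libraries. Their 1 lower call became 2 with no filter, 0 at a mean CPM of at least 1, 0 with the Xist term and 0 without the Xist-high libraries, and 0 to 1 on leaving out single libraries. The Eya phosphatase partners had 1 higher, 0 with the Xist term and 0 without those libraries, and 0 to 1 higher and 0 to 1 lower on leaving out single libraries. Muscle markers had 0 higher, and 1 with DESeq2 size factors, upper-quartile factors, no filter, the Xist term or the Xist-high libraries left out; no filter gave 1 lower, and single libraries left out 0 to 1 in either direction.

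Eya2 passed the threshold with no filter, at a log2 fold change of 0.37 (edgeR quasi-likelihood adjusted p = 0.0275). Per longest transcript, Eya4 made up 21.2% of the Eya level in WT and 7.78% in KO, and Six4 61.6% and 60.8% of the Six-family level. The causes of these shifts were not tested. All 16 called list genes kept their direction with single libraries left out, other normalizations or tools, the Xist term and the replicate block, and 4 of them (Myc, Igfbp5, Vegfc and Ezr) stayed called with any single library left out, 13 under other normalizations or tools (not Sobp, Wt1 and Crym), 5 with the Xist term and 15 with the block. Depth limits Six2 and Eya1, at no more than 26 counts a library.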
